A study of Drosophila melanogaster with 8 samples.

Results

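The genes described here encode the proteins of the cytosolic ribosome of Drosophila melanogaster, measured by RNA sequencing in adult heads with and without a neuronal knockdown of FBXO11. They were taken by name: every gene of the count table whose FlyBase identifier maps to a symbol starting with RpL or RpS and a digit, together with RpLP0, RpLP1, RpLP2 and sta. Symbols starting with mRp, the ribosomal proteins of mitochondria, were left out. The rule found 92 of the 17676 genes in the table, 53 of the large (60S) and 39 of the small (40S) subunit, and used no measured value. Of these, 85 had enough reads to be tested and 83 of them averaged at least 1 CPM (counts relative to the size of the library, on the usual per-million scale and adjusted by the trimmed mean of M-values so that libraries can be compared). The 7 members that were not tested were RpL10Aa, RpL22-like, RpL37-2, RpL7-like, RpS19b, RpS28-like and RpS28a.

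A ribosome is built from ribosomal RNA and one copy of most of its proteins, and the large subunit joins amino acids while the small subunit reads the messenger RNA. The genes of these proteins are among the most highly transcribed in most cells, and their messenger RNAs are known to be made, translated and degraded in step with growth. In flies, losing one copy of many of them gives the Minute phenotype of slow development and thin bristles.

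The 8 libraries fall into 3 groups by their titles: 3 controls, 3 libraries labelled RNA1 and 2 labelled RNA2. The genotype entries call the controls FBXO11 WT and all RNA1 libraries FBXO11 KD1, but give the RNA2 libraries separate names, KD2 and KD3, so they may not be replicates of one line. All 3 groups carry the words neuronal knockdown in their titles and the same batch, 1. FBXO11 encodes an F-box protein, the part of a ubiquitin ligase that selects its substrates. The sources used here give no driver line, age, sex or strain for the flies, so the genetic background of a line cannot be told apart from its knockdown. Whether replicates were separate collections of flies is also not stated. The p-values therefore measure the spread between these libraries, which may be technical.

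FBXO11 was measured at 108, 103 and 97.4 CPM in the controls, 39.7, 42.5 and 37.4 CPM in RNA1, and 44.8 and 52.7 CPM in RNA2, so no knockdown library overlapped a control. Total counts per library ran from 32434805 to 41589222. The photoreceptor gene ninaE, which encodes the main rhodopsin of the fly eye, stood between 23920 and 35350 CPM in every library. In whole heads, fewer cells of a type and less RNA per cell cannot be told apart.

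Ribosomal protein messages took 4.01%, 4.1% and 4.43% of all counts in the controls. They took 4.49%, 4.91% and 5.21% in RNA1 and 5.52% and 4.4% in RNA2. RNA2 replicate 2 lay inside the control range and the other 4 knockdown libraries above it. On the adjusted CPM scale used below, the control sums were 40.7, 41.5 and 45.5 kCPM (1 kCPM is 1000 CPM). RNA1 stood at 44.0, 49.4 and 51.3 kCPM and RNA2 at 55.1 and 43.3 kCPM, so that RNA1 replicate 1 was also inside the control range. The ratio of large-subunit to small-subunit counts was 1.53 to 1.54 in the controls and 1.5 to 1.51 in the knockdown libraries.

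Members differed widely in level. Per kilobase of median transcript length, the mean control level was 1400 CPM for RpL41, a peptide-sized protein that sits between the subunits and had the highest value. The median over the 83 members was 644 CPM per kilobase, and the quartiles were 545 and 801. RpS15Ab was lowest at 27.4 CPM per kilobase, 51.1 times under RpL41. Per kilobase of coding sequence, the scale used at first, RpL41 and RpS15Ab were again highest and lowest, at 5980 and 50.9 CPM per kilobase. The most abundant member without correction for length was RpL5, which binds 5S ribosomal RNA, at 1383 to 1493 CPM in the controls, 1552 to 1686 CPM in RNA1 and 1509 to 1676 CPM in RNA2.

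Several members share a number in their names and were paired by name alone, and one gene carried most reads in each pair. Over the 8 libraries, the lesser gene made up 24.9% to 32.3% of the pair's counts for RpS14b and 21.3% to 23.9% for RpL24-like. The share was 19.6% to 22.5% for RpL34a and 3.44% to 4.42% for RpS15Ab. RpS14a and RpS14b are neighbours on chromosome X (BDGP6, 7933742 to 7934677 and 7934898 to 7935792, both on the plus strand). RpL24 and RpL24-like lie on different chromosomes and have coding sequences of 465 and 573 base pairs. How alike the genes of each pair are in sequence was not measured. The sources used here do not say how the counting treated reads that match both genes of a pair, so these shares are uncertain. RpS5b held 63 counts and RpS10a 92 counts over all 8 libraries. The rarest of these genes were RpS19b with 19 counts, RpL37-2 with 16 and RpS28-like with 12. RpL22-like and RpS28a had 1 each, and RpL10Aa and RpL7-like had 0. A count of 0 allows up to 3 counts, or 0.0729 to 0.0911 CPM depending on the library, and this covers counting error only.

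**Figure D1:**
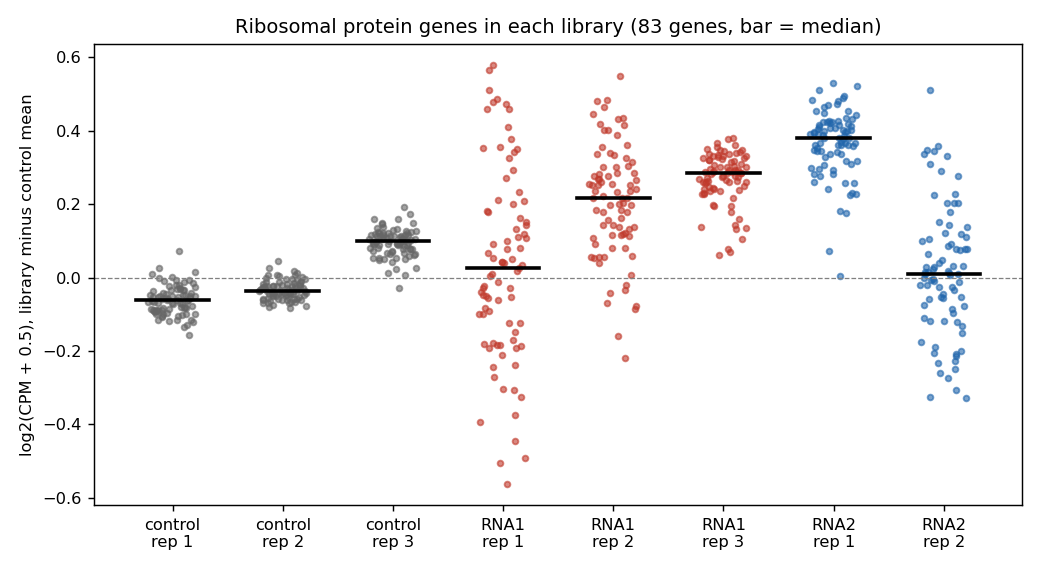
Log2 deviation of each of the 83 members of at least 1 CPM from its mean over the controls (vertical axis), by library (horizontal axis), with 1 point per member and the median marked. The controls, which make up the mean they are measured from, stay close to 0. RNA1 replicate 3 and RNA2 replicate 1 are shifted upwards as a narrow block. RNA1 replicate 1 and RNA2 replicate 2 are spread around a median near 0.

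The individual libraries of a knockdown group did not look alike. Deviations were taken as log2(CPM + 0.5) minus the mean of the controls. Each control is part of that mean, so control deviations tend to be smaller by construction than those of knockdown libraries. The median member deviated by 0.03, 0.22 and 0.29 in RNA1 replicates 1, 2 and 3, and by 0.38 and 0.01 in RNA2 replicates 1 and 2, against -0.06, -0.04 and 0.10 in the controls. RNA1 replicate 3 and RNA2 replicate 1 moved as a block: 80 and 82 of the 83 members lay above all 3 controls, where 35.3% and 36.9% of all tested genes did, and 0 members lay below. In RNA1 replicate 1 and RNA2 replicate 2 the members spread in both directions, with 29 and 22 above all controls (37% and 31.3% of all genes) and 27 and 24 below all controls (35.2% and 30.5% of all genes). RNA1 replicate 2 lay between these patterns, with 68 above and 5 below (33.5% and 33.4% of all genes).

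The spread among members differed in the same way. The SD of the deviations over members was 0.0708 in RNA1 replicate 3 and 0.0922 in RNA2 replicate 1, but 0.262 in RNA1 replicate 1, 0.154 in RNA1 replicate 2 and 0.175 in RNA2 replicate 2. In the controls, each of which is part of the mean it is measured from, it was 0.0259 to 0.0399. Over the 2205 other protein-coding genes of at least 100 CPM, the SD was 0.342 to 0.502 in the knockdown libraries and 0.0935 to 0.115 in the controls. In RNA1 replicate 1 the members ran from -0.56 for RpL22 to 0.58 for RpL39, while in RNA1 replicate 3 they ran only from 0.06 for RpS15Ab to 0.38 for RpS13.

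Against the controls, 14 of the 85 tested members rose in RNA1 and 0 fell. The test was edgeR's quasi-likelihood test with Benjamini-Hochberg adjustment over all 11081 tested genes, and a gene passed at an adjusted p (FDR) under 0.05. The 14 are 16.5% of the tested members, where 5.01% of all tested genes rose and 5.25% fell. The complete set is RpL10, RpL15, RpL21, RpL29, RpL37A, RpL39, RpL40, RpL41, RpS13, RpS15Aa, RpS20, RpS27A, RpS29 and RpS3A, which is 8 of 49 large-subunit and 6 of 36 small-subunit members. At an unadjusted p under 0.05, 24 members were higher and 0 lower in edgeR, where 13.7% and 13.1% of all genes were. DESeq2 and limma-voom also called 0 members lower. The 3 RNA1 libraries lay above all 3 controls for 27 members (31.8%), where this held for 17% of all genes.

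The count depended on which control or RNA1 library was left out. It was 0 without control replicate 1, 0 without control replicate 2 and 7 without control replicate 3. All genes called fell as well in these fits, from 1137 to 535, 476 and 548. The member count was 1 (RpS3A) without RNA1 replicate 2, with 570 genes called in all. It was 7 without RNA1 replicate 1, with 529 genes higher and 466 lower. Without RNA1 replicate 3 it was 11, with 931 genes called in all. How much of each drop came from having fewer libraries was not tested. The fold change of RpS3A moved little, between 0.42 and 0.50 (log2) with edgeR adjusted p from 0.0116 to 0.0563 over the libraries left out in turn. Other members moved more and changed sign, such as RpL8 (-0.257 to 0.103) and RpL4 (-0.158 to 0.182). The median over members ran from 0.128 to 0.25. With libraries scaled by their totals, 14 members rose again, but the split of all called genes moved from 555 higher and 582 lower to 733 higher and 487 lower.

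**Figure D2:**
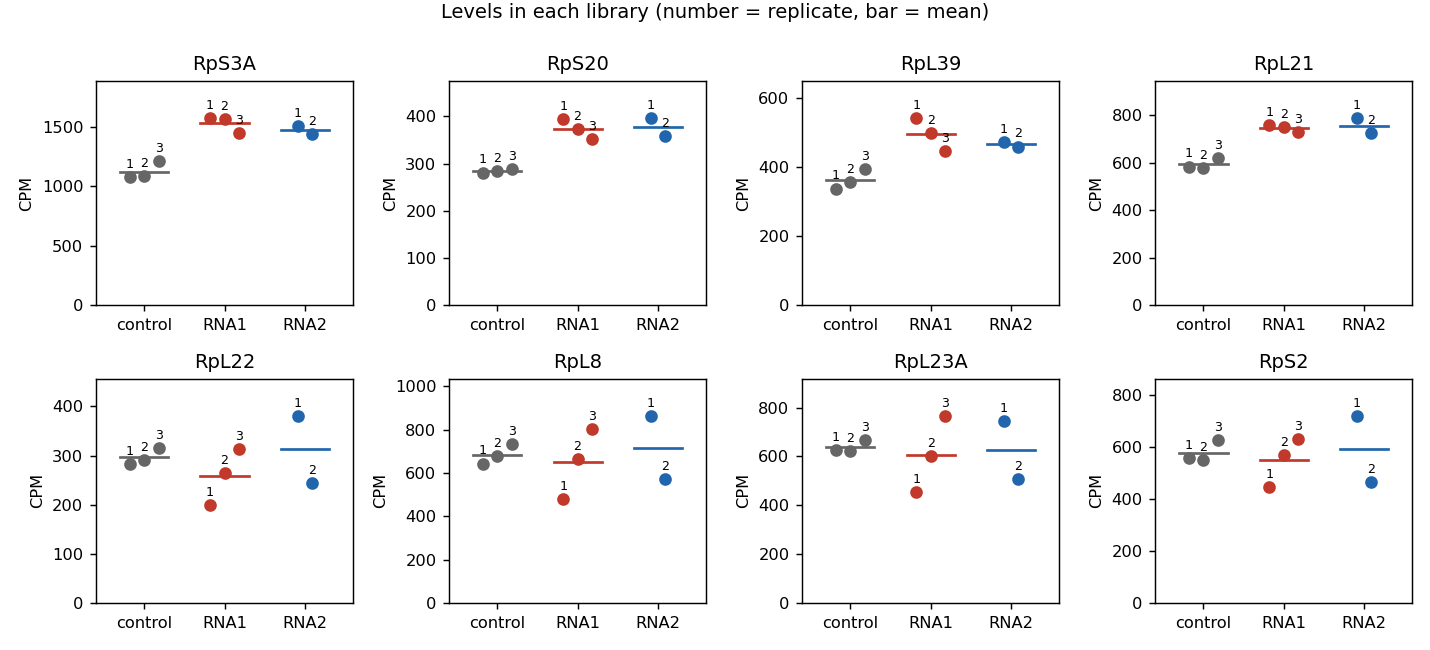
Level in CPM (vertical axis) of 8 members by group (horizontal axis), with 1 numbered point per replicate and a bar at the group mean. RpS3A, RpS20, RpL39 and RpL21 lie above every control in all 5 knockdown libraries, while RpL22, RpL8, RpL23A and RpS2 lie below every control in RNA1 replicate 1 and RNA2 replicate 2 and above every control in RNA2 replicate 1.

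RpS3A, a small-subunit protein near the exit of the messenger RNA, had the lowest adjusted p. It was measured at 1077, 1082 and 1207 CPM in the controls, 1569, 1566 and 1444 CPM in RNA1, and 1503 and 1436 CPM in RNA2. All 5 knockdown libraries lay above all controls. Its log2 fold change in RNA1 was 0.44 ± 0.08 (SE, n = 3 against 3; edgeR adjusted p = 0.0104). The gene lies on chromosome 4 (BDGP6, 65225 to 67207, minus strand).

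RpS20, a protein of the head of the small subunit, stood at 281, 284 and 289 CPM in the controls, 395, 373 and 351 CPM in RNA1, and 396 and 359 CPM in RNA2. Neither knockdown group overlapped the controls, and the log2 fold change in RNA1 was 0.39 ± 0.08 (edgeR adjusted p = 0.013). RpS20 (3R, 20822181 to 20823356, plus strand) shares 44 bases of exon with CG17272 on the other strand. The sources used here do not give the strand setting of the counting, so reads of such overlapping genes cannot be told apart.

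RpL10, which joins the large subunit late and sits near the site of peptide bond formation, was at 774, 736 and 798 CPM in the controls and 983, 1047 and 964 CPM in RNA1 (log2 0.38 ± 0.07, edgeR adjusted p = 0.0138). RpL39, which lines the exit tunnel of the new protein, was at 338, 357 and 394 CPM in the controls and 542, 500 and 448 CPM in RNA1 (log2 0.45 ± 0.09, edgeR adjusted p = 0.0157). RpL39 overlaps RpL12 on the other strand by 8 bases. In both genes every RNA1 library was above every control.

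RpL15, a core protein of the large subunit, was at 762, 803 and 868 CPM in the controls and 1113, 1131 and 978 CPM in RNA1 (log2 0.41 ± 0.09, edgeR adjusted p = 0.0188). RpL21, also of the large subunit, was at 584, 576 and 620 CPM in the controls and 759, 750 and 731 CPM in RNA1 (log2 0.33 ± 0.07, edgeR adjusted p = 0.021). Again no RNA1 library overlapped a control. The 2 members made as fusions to ubiquitin rose as well: RpL40 by log2 0.35 ± 0.09 and RpS27A by log2 0.39 ± 0.10. RpS27A shares exon sequence with Ip259 on its own strand, so its counts are uncertain.

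The stalk proteins, which recruit elongation factors to the large subunit, did not pass. RpLP0 was at 525, 565 and 620 CPM in the controls and 500, 593 and 612 CPM in RNA1, RpLP1 had a log2 fold change of 0.17 ± 0.13, and RpLP2 one of 0.22 ± 0.14. The sta gene, which encodes a small-subunit protein, was at 684, 689 and 787 CPM in the controls and 582, 793 and 870 CPM in RNA1, so that the groups overlapped.

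RpL22 had the most negative fold change of the abundant members in RNA1, at log2 -0.19 ± 0.20 (edgeR adjusted p = 0.575). It was measured at 284, 290 and 315 CPM in the controls, 200, 265 and 313 CPM in RNA1, and 380 and 245 CPM in RNA2. The knockdown libraries lay on both sides of the controls. RpL8 and RpS2, singled out after their values were seen, had the same shape. RpL8, part of the catalytic centre, was at 643, 678 and 731 CPM in the controls, 481, 664 and 805 CPM in RNA1, and 862 and 571 CPM in RNA2.

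**Figure D3:**
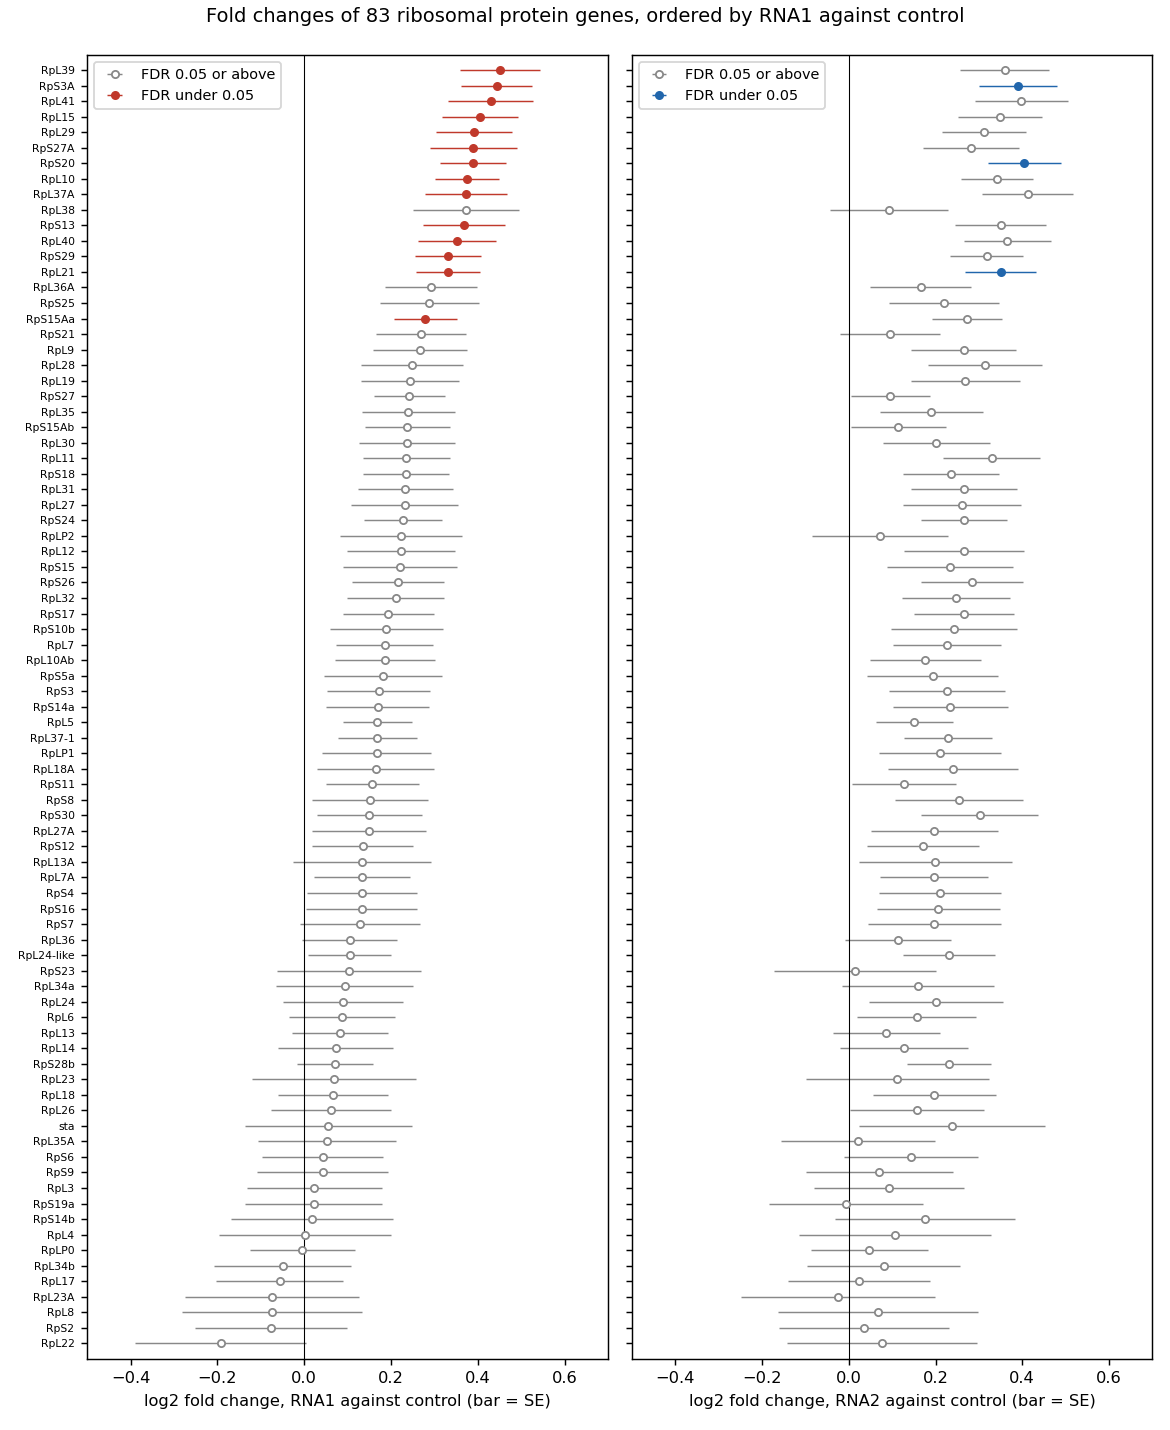
Log2 fold change against the controls of the 83 members of at least 1 CPM in RNA1 and RNA2 (horizontal axis, 1 panel per comparison), with members in order of their RNA1 fold change on the vertical axis, points for the estimates and bars for the standard error. Filled points mark members that passed the test. The estimates run from -0.19 to 0.45 in RNA1 and from -0.03 to 0.41 in RNA2.

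Over the 83 members the median log2 fold change in RNA1 was 0.17, beside 0.01 over all tested genes, and 76 of the 83 were positive, as were 51.4% of all genes. The large subunit had a median of 0.17 (49 members) and the small subunit 0.18 (34 members).

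In RNA2, 3 of the 85 members rose and 0 fell. The 3 are 3.53% of the members, where 1.76% of all genes rose and 2.02% fell. RpS3A rose by log2 0.39 ± 0.09 (edgeR adjusted p = 0.0474), RpS20 by 0.40 ± 0.08 (adjusted p = 0.0298) and RpL21 by 0.35 ± 0.08 (adjusted p = 0.0473), each with n = 2 against 3. RpL21 was at 787 and 726 CPM in RNA2, above its 3 controls. At an unadjusted p under 0.05, 22 members were higher and 0 lower in edgeR, where 8.58% and 9.86% of all genes were. DESeq2 and limma-voom called 0 members lower. RNA1 and RNA2 were compared with the same 3 controls, so their calls are not independent.

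The median log2 fold change in RNA2 was 0.21, beside 0.01 over all genes, and 81 of the 83 abundant members were positive, as were 51.8% of all genes. That median depended on which RNA2 library was used, at 0.007 without replicate 1 and 0.38 without replicate 2. The count of 3 became 0 without any one of the controls, without RNA1 replicate 2 or without RNA2 replicate 1. DESeq2 called 12 members in place of 3, scaling by library totals gave 6, and fitting only the 2 groups gave 1. Both RNA2 libraries lay above all controls for 21 members (24.7%; 20.4% of all genes) and below for RpS5b alone (1 of 85 members; 18.5% of all genes), at 6 and 4 counts against 12, 12 and 9.

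Between RNA2 and RNA1, 0 members were called in edgeR, and 0 had an unadjusted p under 0.05 in either direction, where 3.89% of all genes were higher and 3.77% lower. Over all genes, edgeR called 0.19% higher and 0.0902% lower in RNA2. DESeq2 and limma-voom also called 0 members, where DESeq2 called 66 of all genes higher and 81 lower and limma-voom 21 and 10. Member differences ran from log2 -0.28 ± 0.13 for RpL38 to 0.27 ± 0.22 for RpL22, with a median of 0.04. Of the 85 members 57 had a positive difference (48.2% of all genes), and for 0 did the groups not overlap, against 11.3% of all genes higher and 9.61% lower. RpL38, a small protein of the large subunit, was at 366, 389 and 279 CPM in RNA1 and 267 and 301 CPM in RNA2, against 262, 253 and 283 CPM in the controls. All 5 knockdown libraries lay above all controls for 18 of the 85 members (21.2%; 10.7% of all genes), and below for 0 (10.7% of all genes).

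**Figure D4:**
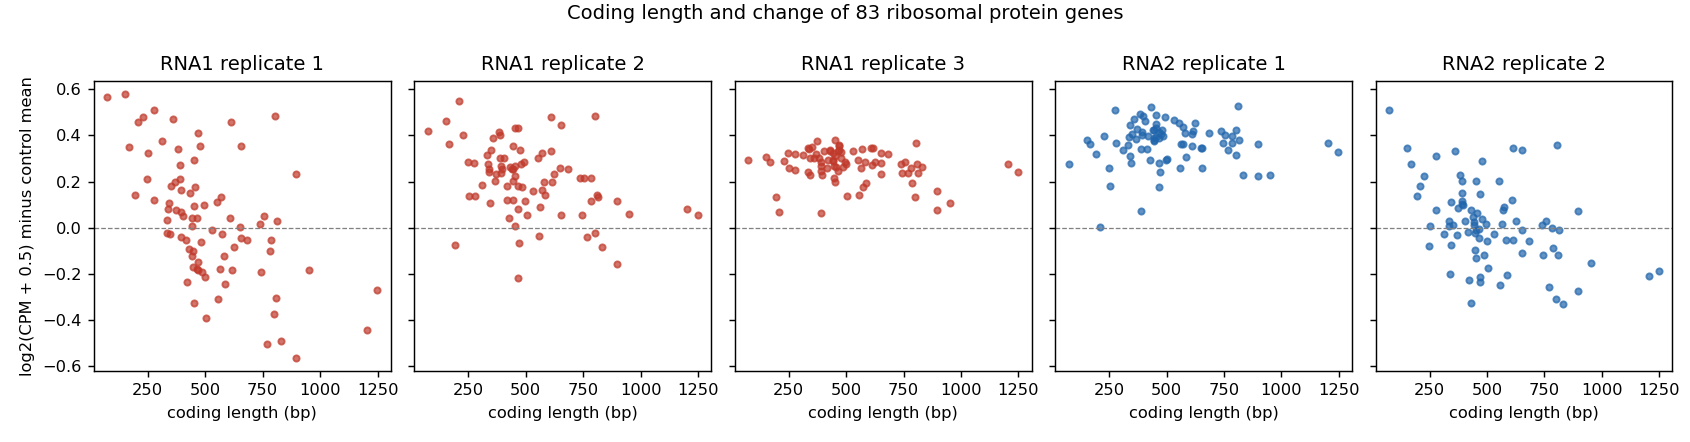
Log2 deviation from the control mean (vertical axis) of the 83 members against the length of their coding sequence in base pairs (horizontal axis), 1 panel per knockdown library and 1 point per member. In RNA1 replicate 1 and RNA2 replicate 2 short members lie higher than long ones, and in RNA2 replicate 1 the points show little slope.

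In some libraries the deviations were related to the length of the coding sequence, which ran from 75 base pairs in RpL41 to 1248 in RpL3. Spearman's rho between length and deviation was -0.56, -0.40 and -0.23 in RNA1 replicates 1, 2 and 3 and -0.03 and -0.42 in RNA2 replicates 1 and 2, over 83 members that share each library and the same control mean. Over the 2205 other protein-coding genes of at least 100 CPM it was -0.09, -0.15, -0.17, 0.03 and 0.12. These genes were not limited to the members' range of coding lengths, so the 2 sets of values may cover unlike lengths. The members' values in RNA1 replicate 3 and RNA2 replicate 1 were thus close to those of the other genes. In RNA1 replicate 1 the 40 members under 465 base pairs had a median deviation of 0.13 and the 43 longer ones of -0.08. In RNA1 replicate 3 the medians were 0.29 and 0.28. Of the 14 members that rose in RNA1, 9 were among the 40 shorter and 5 among the 43 longer ones. 

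Other genes of the translation machinery were read from the same tests. Of 27 initiation factors, 2 rose in RNA1 and 3 in RNA2 in edgeR, with medians of log2 0.15 and 0.17. In RNA1, 0 were called lower in edgeR and limma-voom but 2 in DESeq2, which called 8 higher, and edgeR had 13 higher and 3 lower at an unadjusted p under 0.05. In RNA2, 0 were called lower by any of these tools, with 8 higher and 1 lower at an unadjusted p under 0.05 in edgeR. The factors that rose in edgeR were eIF3h (0.34 ± 0.09 and 0.47 ± 0.10) and eIF3l (0.33 ± 0.08 and 0.40 ± 0.09), with eIF3m in RNA2 (0.39 ± 0.09), all subunits of the complex that places the small subunit on the message. Of 10 elongation and termination factors, 4 rose in RNA1: eRF1, eEF5, pix and eEF1delta. In RNA2 pix rose (0.34 ± 0.08), a protein that splits ribosomes after termination.

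Genes that build ribosomes were read in the same way. Of 24 biogenesis factors, Ns2 rose (0.38 ± 0.07) and pes fell by 0.37 on the log2 scale in RNA1, and 0 passed in RNA2 in edgeR, DESeq2 and limma-voom, with 4 higher and 1 lower at an unadjusted p under 0.05 in edgeR. Of 28 growth and translation control genes, Rheb, an activator of the TOR kinase, rose in RNA1 in edgeR (0.24 ± 0.06). In the same comparison DESeq2 called 2 of these genes higher and limma-voom 0. At an unadjusted p under 0.05, edgeR had 4 higher and 2 lower. Of 73 mitochondrial ribosomal proteins, mRpS31 rose in RNA1 (0.44 ± 0.09), and the medians were 0.04 in RNA1 and 0.06 in RNA2.

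**Figure D5:**
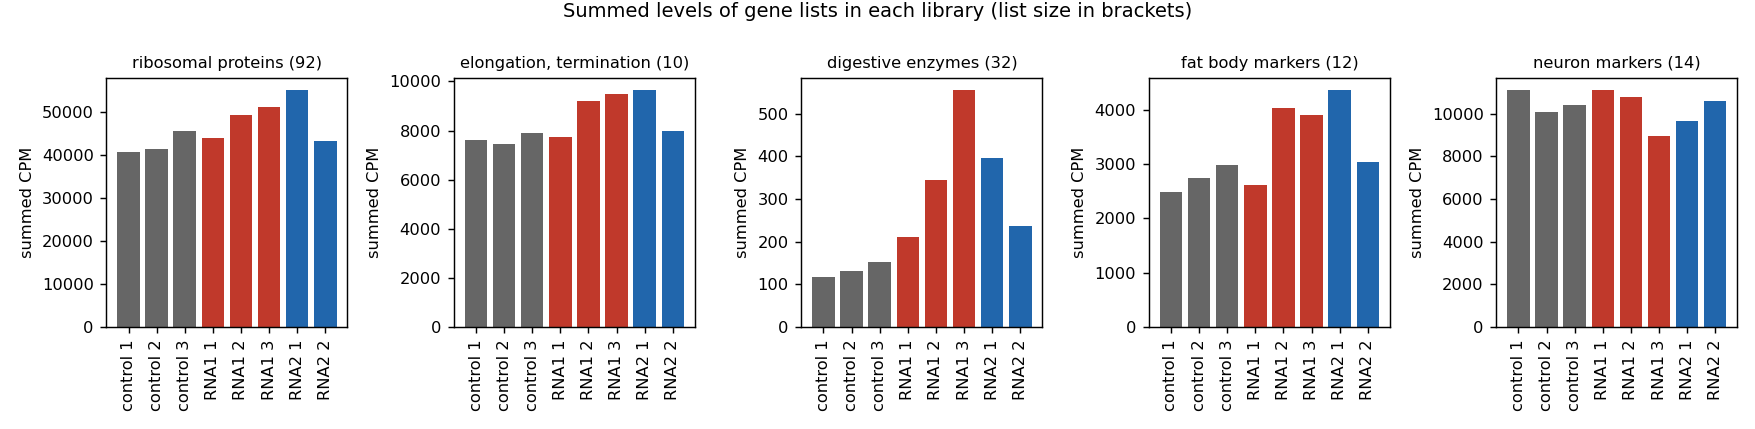
Summed level in CPM (vertical axis, bars from 0) of 5 gene lists in each library (horizontal axis, coloured by group), 1 panel per list. The elongation and termination factors and the fat body markers are higher in RNA1 replicates 2 and 3 and RNA2 replicate 1 than in the other knockdown libraries.

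Summed levels of some marker lists of other cell types also differed between the knockdown libraries. The 12 fat body markers summed to 2480, 2740 and 2980 CPM in the controls, 2620, 4030 and 3900 CPM in RNA1, and 4360 and 3030 CPM in RNA2, and 3 rose and 1 fell in RNA1. Their median deviation was 0.453, 0.224 and 0.664 in RNA1 and 0.486 and 0.219 in RNA2, so it did not order the libraries as the sums did. The digestive enzymes summed to 118 to 151 CPM in the controls. Their sums were 211, 344 and 555 CPM for RNA1 and 395 and 237 CPM for RNA2. RNA1 replicate 3 stood apart, with Jon65Aiv at 64.2 CPM, epsilonTry at 50.4 CPM, LysB at 43.3 CPM, LysD at 37.0 CPM and Jon65Aiii at 32.1 CPM, all under 1 CPM in every other library. RNA1 replicate 3 is also 1 of the 2 libraries in which the ribosomal protein genes moved as a block. The other, RNA2 replicate 1, had each of these named enzymes under 1 CPM. Of 15 tested, 3 rose in RNA1, and Jon99Fii and gammaTry were at 0 in every library. The hemocyte markers summed to 1090 to 1130 CPM in the controls and 1020 to 1520 CPM in the knockdown libraries, with 4 of 12 higher and 1 lower in RNA1.

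The glia markers summed to 3570 to 3950 CPM in the controls and 2840 to 3540 CPM in the knockdown libraries. Of 11, 4 fell in RNA1 and 4 in RNA2 in edgeR. At an unadjusted p under 0.05, 6 were lower in RNA1 and 7 in RNA2, with 0 higher. The neuron markers summed to 10100 to 11100 CPM in the controls and 8950 to 11100 CPM in the knockdown libraries. Of 14, only ChAT, which makes acetylcholine, fell in RNA1 in edgeR. In RNA2, 1 fell in edgeR and 2 in DESeq2. At an unadjusted p under 0.05, edgeR had 3 lower and 1 higher in RNA1, and 5 lower and 0 higher in RNA2. The antimicrobial peptides summed to 112 to 191 CPM in the controls and 1440 to 3530 CPM in the knockdown libraries, and 12 of 14 rose in RNA1. The ovary markers summed to 7.9 to 11.6 CPM in the controls and 3.06 to 3.95 CPM in the knockdown libraries, with Cp16 and bcd at 0. The testis markers summed to 2.63 to 3.84 CPM over all libraries, the photoreceptor markers to 66800 to 82500 CPM and the muscle markers to 11200 to 14500 CPM. Of 16 photoreceptor markers, 1 fell in RNA1 in edgeR and 3 in DESeq2, and 0 fell in RNA2 in either. Of 14 muscle markers, 1 rose in RNA1 and 1 in RNA2 in edgeR and 0 fell, while DESeq2 called 1 lower in RNA1. The part of these cell types in the ribosomal protein values was not tested.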

How the data were processed

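The file the authors deposited holds raw read counts for each gene in 8 libraries. Per the submitters' processing notes, bcl2fastq 2.17, cutadapt 1.18, FastQC 0.11.8, STAR 2.6.1, SAMtools 1.8, DESeq2 1.24.0 and build BDGP6 were used; the sources used here name neither the read counter nor its strand setting. Per the labels' protocols, RNA was made into stranded, poly(A)-selected libraries. Symbols came from Ensembl release 115, matching 17549 identifiers and leaving 127 without one. Genes passed edgeR 4.0.16 filterByExpr (minimum count 10, total 15), and one quasi-likelihood fit over all 8 libraries (TMM, robust, R 4.3.3) gave every test, with Benjamini-Hochberg adjustment over 11081 genes. SEs were derived from the fold change and its F statistic. DESeq2 1.42.0, limma-voom 3.58.1, other scalings and filters, a replicate block and leaving out libraries were alternatives. The tests were tried on simulated data.

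The members and gene lists were chosen with earlier results of these data known. Members named are the 6 of lowest adjusted p per comparison, the most and least abundant, the stalk and ubiquitin-fused proteins and sta. Pairs that share a number in their names and the 2 most negative per comparison are also named. The other members named were chosen after their values were seen. Levels per length were first computed per kilobase of coding sequence and changed to median transcript length after those values were seen, because untranslated sequence inflates the shortest coding sequences. Libraries of a group differed beyond counting noise (chi-square per degree of freedom 23.1 to 68.3), and none was merged. The value of 68.3 belongs to the RNA2 libraries, which may be separate lines. Within RNA1 the values were 29.2, 43.6 and 60.1. Between RNA1 and RNA2 libraries, the lowest was 24.9, for RNA1 replicate 1 against RNA2 replicate 2. The highest was 107, for RNA1 replicate 1 against RNA2 replicate 1. Some libraries of different knockdown groups were thus closer than libraries of one group. Of the listed genes, Taf1B, Tor, mnt, Hbs1, Znf598, nos, Mst35Ba and Mst35Bb matched no symbol.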

Additional observations from a re-analysis of the deposited data

How the results depend on the processing

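Across the alternatives tried, 0 members fell at an FDR under 0.05 in any comparison, which leaves no called direction to turn. At an unadjusted p under 0.05, some alternatives did have members lower. Without RNA1 replicate 3, edgeR had 18 members higher and 1 lower in RNA1. Fits without RNA2 replicate 1, which leave RNA2 with 1 library, also had members lower at that threshold. Of 4838 member values, 4677 kept their side of the threshold, 95 lost it and 66 gained it. Most of those that kept it were called neither before nor after, since the fit used above called only 14 members in RNA1 and 3 in RNA2. Fold changes of members not called did change sign, for example from -0.276 to 0.355 for RpL22 in RNA2 over the libraries left out in turn. Leaving out each library in turn, the members that rose ranged from 0 to 14 in RNA1 and from 0 to 4 in RNA2, and all genes called from 476 to 1189 in RNA1, 115 to 561 in RNA2 and 17 to 40 between RNA2 and RNA1. Medians over members ranged from 0.128 to 0.25, 0.00729 to 0.375 and -0.164 to 0.208. For RNA2, library totals gave 6 members, DESeq2 12 members and 910 genes, and the 2 groups alone 1 member; DESeq2 called 147 genes between RNA2 and RNA1. Library totals changed the RNA2 split of called genes to 242 higher and 186 lower.

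2 alternatives that each leave out a pair of libraries were added after seeing the data, and the pairs were chosen by how the members themselves behaved there, so their counts are no independent support. Without RNA1 replicate 1 and RNA2 replicate 2, where members spread, 23 members rose in RNA1 (including all 14) and 38 in RNA2, with 1375 genes called in RNA1, 988 genes called in RNA2 and 54 between RNA2 and RNA1. Without RNA1 replicate 3 and RNA2 replicate 1, where they moved as a block, 15 rose in RNA1 and 0 in RNA2, with 1108 genes called in RNA1, 153 in RNA2 and 14 between RNA2 and RNA1. Each leaves RNA2 with 1 library, assumed to vary like the other groups.

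With the replicate block, 5 members rose in RNA1 and 0 in RNA2, and 214 genes were called in RNA2 and 17 between RNA2 and RNA1. Between same-numbered libraries of different groups, deviations had r from -0.28 to 0.25. Between libraries of different groups and numbers, r ran from -0.25 to 0.28. With only 2 RNA2 libraries, their r values come in pairs of opposite sign. The values therefore cannot show whether a shared number means shared handling. The cause of these differences was not tested.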

Other observations

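The difference between libraries of a group was alike in both knockdown groups. The 2 RNA2 libraries carry separate genotype names, so their difference may be one between lines. RNA1 replicate 1 minus replicate 3, set against RNA2 replicate 2 minus replicate 1, gave Pearson's r = 0.87 across the 83 members, with no library shared. It was 0.38 across 2205 other protein-coding genes of at least 100 CPM and 0.54 across 73 mitochondrial ribosomal proteins. The libraries and the order of subtraction, which sets the sign, were chosen after the values were seen, and genes are not independent replicates, so this is a description. Control replicate 1 minus replicate 3 gave r = 0.16 with the RNA1 difference over the same members.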
